A study of Homo sapiens with 6 samples.

Results

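The centrosomal genes described here are CDK5RAP2, every gene whose symbol is CEP followed by a number (with or without a closing L or NL), and PCNT, PCM1, NEDD1, NIN, CNTROB, SASS6, STIL and CENPJ. The rule used gene symbols only and found 43 of the 56303 rows of the count table, and all 43 passed the filter on low counts that left 18243 genes to test. It also found 10 of the 1582 listed splicing records, 2 of them in CDK5RAP2. mRNA was sequenced from SW480, a human colon adenocarcinoma cell line, with 3 libraries carrying a non-silencing control hairpin (shCtrl) and 3 carrying a hairpin against the splicing factor RBM39 (shRBM39). The labels give the genotype as wild type for shCtrl and as RBM39 knockdown for shRBM39. Per the study's methods, hairpins were delivered by lentivirus and stable clonal lines were kept under puromycin, so each group may descend from few cells. The comparison asked which transcripts and which exons changed when RBM39 was reduced.

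The centrosome is the main microtubule-organizing center of animal cells: a pair of centrioles within a cloud of pericentriolar material. Proteins of that cloud, among them CDK5RAP2, pericentrin (PCNT) and CEP192, bring in gamma-tubulin ring complexes, from which microtubules grow. New centrioles are built once per cell cycle on a cartwheel of SASS6 and STIL, older centrioles carry appendages that dock vesicles and cilia, and granules called centriolar satellites, organized by PCM1, move proteins to and from the centrosome. Mutations of CDK5RAP2, CENPJ, STIL, CEP152 and CEP135 are known causes of primary microcephaly, and mutations of CEP290 of ciliopathies.

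Of the 10 listed exon choices, 3 are shown in sequence because their inclusion differed between the groups of the splicing table by the test used below and the exon is wholly coding. In the lines of single exons, exon letters are in capitals and the 10 intron bases on each side in lower case, on the transcribed strand of GRCh38. The line that joins exon 31 to exon 33 holds exon bases only, in lower case. CDK5RAP2 exon 32 of 38 lies at chr9:120407012-120407248 on the minus strand. CEP131 exon 11 of 26 lies at chr17:81198877-81198971 on the minus strand, and CEP164 exon 8 of 33 at chr11:117363429-117363506 on the plus strand. Exon numbers follow the canonical transcript of GENCODE v44.
CDK5RAP2 exon 32: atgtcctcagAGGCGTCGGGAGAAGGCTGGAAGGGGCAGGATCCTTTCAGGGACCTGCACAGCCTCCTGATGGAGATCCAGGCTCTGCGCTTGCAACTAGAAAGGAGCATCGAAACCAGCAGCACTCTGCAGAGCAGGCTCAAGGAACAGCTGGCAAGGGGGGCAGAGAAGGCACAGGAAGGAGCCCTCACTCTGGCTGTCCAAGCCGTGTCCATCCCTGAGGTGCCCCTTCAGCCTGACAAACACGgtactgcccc
CDK5RAP2 exon 31 joined to exon 33, as read across the junction when exon 32 is skipped: acaggagactgagagatggtgacaaatatc
CEP131 exon 11: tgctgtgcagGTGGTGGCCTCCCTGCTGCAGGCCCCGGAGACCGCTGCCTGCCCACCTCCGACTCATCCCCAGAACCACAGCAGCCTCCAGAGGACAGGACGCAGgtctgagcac
CEP164 exon 8: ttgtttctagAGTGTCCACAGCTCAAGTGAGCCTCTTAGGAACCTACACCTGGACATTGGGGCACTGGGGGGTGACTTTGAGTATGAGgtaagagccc
CDK5RAP2 exon 32 has 237 bases, or 79 codons, so that skipping it leaves the reading frame open and shortens the coding sequence from 1893 to 1814 codons. CEP164 exon 8 has 78 bases, or 26 codons, and skipping it also keeps the frame, with 1434 codons left of 1460. CEP131 exon 11 has 95 bases, which is not a multiple of 3, and the exon that follows it in the record matches no coding exon of the canonical transcript. The exon of CDK5RAP2 is long and rich in G and C beside the other listed cassette exons: the median of 1208 such exons was 113 bases and 50% GC, against 60.3% GC for exon 32. Pyrimidines made up 70% of the 20 intron bases before it, equal to the median of 70% over the listed exons.

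Total counts ran from 18042924 to 20428901 per library, and every pair of replicates differed by more than counting noise. The labels do not say whether replicates are separate cultures, so p-values measure the spread between these libraries only. RBM39 itself fell by 37.0%, from 441, 448 and 435 CPM in shCtrl to 266, 276 and 292 under the hairpin (log2 fold change -0.67, SE 0.04). CPM are counts scaled to the library total, here with edgeR's trimmed mean of M values (TMM) factors. The epithelial markers EPCAM, KRT8, KRT18, VIL1 and CDH1 were present in every library, KRT20 was at 0.148 to 1.45 CPM, and CDX2 was at 21.3 to 22.4 CPM in shCtrl and 4.65 to 5.56 in shRBM39. KRT8 was at 6692 to 7157 CPM in shCtrl and 9156 to 9521 in shRBM39, and KRT18 was also higher. CDH1 was at 88.7 to 89.8 CPM in shCtrl and 66.1 to 70 in shRBM39, and VIL1 was also lower. Of 7 markers of other cell types, PTPRC was at 0 and CD3E and COL3A1 at no more than 3 counts in every library, while the 7 summed to 11.4 to 12.8 CPM in shCtrl and 19.5 to 22.3 in shRBM39. The part of these markers in the results below was not tested.

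Centrosomal transcripts moved in both directions and by modest amounts. Of the 43 genes, 15 were higher and 13 lower in shRBM39 by edgeR's quasi-likelihood test at an adjusted p under 0.05, and 15 did not pass. Called genes made up 65.1% of the 43, beside 59.1% of all tested genes, of which 29.2% were higher and 29.9% lower. No member changed as much as 2-fold, whereas 6.52% of all tested genes did. The members' median absolute log2 fold change was 0.21 against 0.30 over all tested genes, and their median log2 fold change was 0.04 against -0.01. In 29 of the 43 genes the 3 libraries of a group lay entirely on one side of the 3 of the other, beside 63.3% of all tested genes. As a description, members were also longer and poorer in G and C than tested genes as a whole, with median merged exon lengths of 8168 against 3901 bases and a median GC content of 41.1% against 49.3%.

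**Figure D1:**
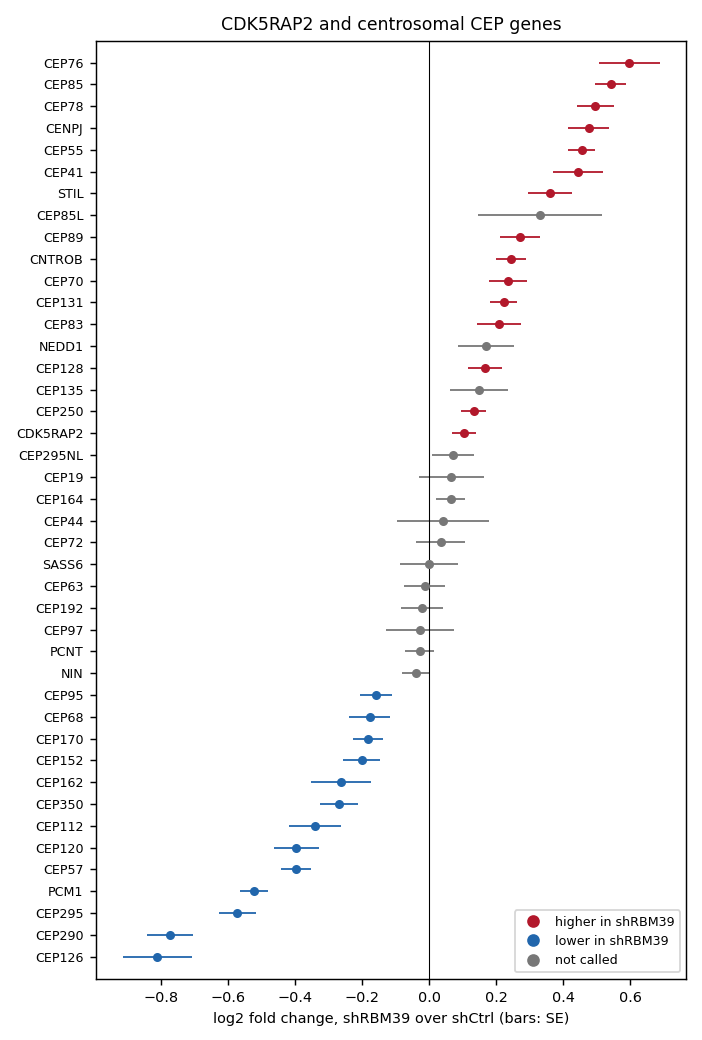
Log2 fold change of shRBM39 over shCtrl for 42 of the 43 centrosomal genes, ordered by size, with bars of 1 SE and colours for genes higher (15), lower (13) or not called (14). The values ran from -0.81 for CEP126 to 0.60 for CEP76, and CDK5RAP2 sat near the middle at 0.10.

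How these calls split depended on how libraries were scaled. Scaling by library totals alone shifted the median of all tested genes from -0.01 to -0.14 on the log2 scale and gave 10 members higher and 16 lower in place of 15 and 13. limma-trend on RPKM (counts scaled by library total and gene length), which carries the same scaling, gave 7 higher and 15 lower. A correction for GC content and gene length went the other way, with 21 higher and 9 lower. Of the 28 calls, 15 were made in the same direction under all 15 alternatives, 7 higher and 8 lower, and none of the 28 was called in the other direction under any of them. NIN and PCNT, not called here, were called lower with library totals alone and higher with the GC and length correction.

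**Figure D2:**
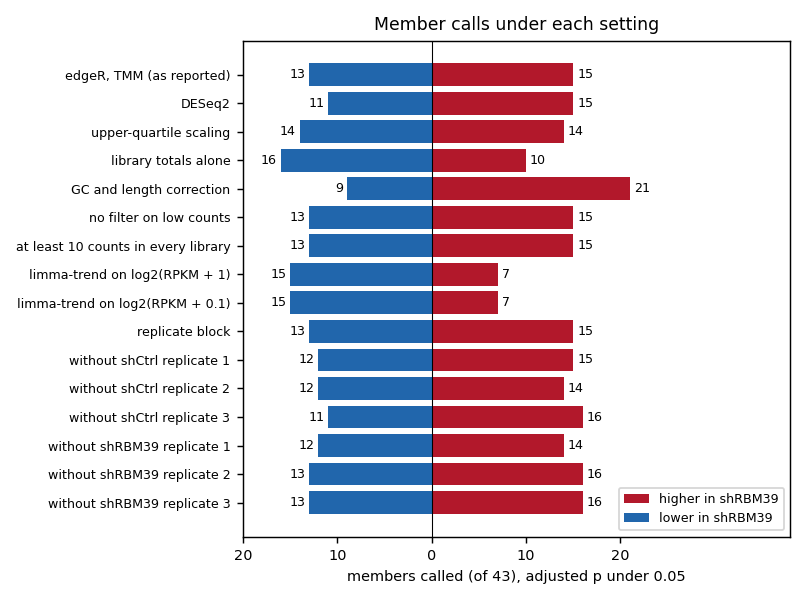
Number of the 43 genes called higher (right) or lower (left) in shRBM39 at an adjusted p under 0.05 under the reported fit and each alternative. Library totals alone gave 10 higher and 16 lower, and the GC and length correction 21 and 9.

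In the pericentriolar scaffold, only CDK5RAP2 of 4 genes passed in the reported fit, by a small rise. CDK5RAP2 (chr9:120388869-120580170, GRCh38) was at 243, 248 and 251 CPM in shCtrl and 274, 266 and 258 in shRBM39. The 3 knockdown libraries all lay above the 3 controls, by a narrow margin. Its fitted level was 7.47% higher, with a log2 fold change of 0.10 (SE 0.04, adjusted p = 0.0158 by edgeR). The sign rested on the scaling: the log2 fold change was -0.02 with library totals alone (adjusted p = 0.653 by edgeR) and 0.21 after the GC and length correction, and the call was lost without shRBM39 replicate 1 (0.09, adjusted p = 0.0697 by edgeR). In RPKM, scaled by library totals, the groups differed by less than their spread, with 25.6 ± 0.59 RPKM in shCtrl and 25.3 ± 0.78 in shRBM39 (SD, n = 3 each). PCNT, which anchors much of the pericentriolar material, overlapped between groups at 159, 178 and 173 CPM against 173, 170 and 158. Its log2 fold change was -0.03 (SE 0.04, adjusted p = 0.585 by edgeR), but -0.15 and called lower with library totals alone, and 0.10 and called higher with the GC and length correction. CEP192, the scaffold that recruits the kinases AURKA and PLK1 to the mitotic centrosome, was at 21.1 to 22.8 CPM in shCtrl and 21.3 to 22.1 in shRBM39. NEDD1, which tethers the gamma-tubulin ring complex, had a log2 fold change of 0.17 (SE 0.08) and overlapping groups. Neither gene passed the test, with adjusted p = 0.794 for CEP192 and 0.0753 for NEDD1 by edgeR. NEDD1 did pass without shRBM39 replicate 2 (0.24) and with the GC and length correction.

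Centriolar satellite transcripts held the 2 lowest log2 fold changes of the family in the reported fit. Of the 5 genes in this list, CEP126, CEP290 and PCM1 fell, CEP131 rose and CEP72 did not pass. CEP126, a satellite and ciliary base protein, was at 9.78, 9.37 and 10.0 CPM in shCtrl and 5.10, 5.98 and 5.58 in shRBM39. Its level fell by 43% (log2 fold change -0.81, SE 0.10, adjusted p = 2.7e-08 by edgeR). CEP290, a protein of satellites and of the ciliary transition zone, was at 24.3, 23.2 and 26.1 CPM in shCtrl and between 14.3 and 14.4 in every shRBM39 library. It fell by 41.5% (log2 fold change -0.77, SE 0.07, adjusted p = 9.77e-12 by edgeR).

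PCM1, on whose assembly satellites depend, was at 134, 138 and 145 CPM in shCtrl and 95.8, 95.3 and 99.3 in shRBM39. It fell by 30.4% (log2 fold change -0.52, SE 0.04, adjusted p = 2.97e-13 by edgeR), the lowest adjusted p among members. CEP131, which binds PCM1, was at 114, 107 and 109 CPM in shCtrl and 130, 132 and 123 in shRBM39. Its rise of 16.7% passed in the reported fit (adjusted p = 1.72e-05 by edgeR), but not with limma-trend on log2(RPKM + 1), where the log2 fold change was 0.10. The falls of CEP126, CEP290 and PCM1 were called under all 15 alternatives. Together with 6 further satellite genes of the partner lists, 8 of 11 were lower and 1 higher, a grouping made after the values were seen. Of all tested genes, 29.9% were lower and 29.2% higher.

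Genes of centriole assembly split much as all tested genes did. Of 15, 5 were higher (33.3%), 4 lower (26.7%) and 6 not called, beside 29.2% higher and 29.9% lower of all tested genes. Their median log2 fold change was -0.000629. CENPJ, which sets centriole length by adding tubulin, was at 19.6, 19.5 and 19.4 CPM in shCtrl and 26.8, 27.8 and 26.7 in shRBM39. It rose by 39.1% (log2 fold change 0.48, SE 0.06), and no control library came near the knockdown values. STIL, the cartwheel partner of SASS6, was at 21.4, 22.1 and 23.1 CPM in shCtrl and 26.5, 27.4 and 31.5 in shRBM39 (0.36, SE 0.07). SASS6 was level, at 11.1, 10.1 and 11.0 CPM against 11.1, 10.1 and 10.9. CEP76, which restrains reduplication of centrioles, had the highest log2 fold change of the members in the reported fit, at 7.64, 8.71 and 8.61 CPM against 11.7, 13.1 and 13.0. Its gain of 51.4% had a log2 fold change of 0.60 (SE 0.09, adjusted p = 6.74e-07 by edgeR), while CEP85 was above it without shCtrl replicate 1 (0.60 against 0.55). Over the alternatives CEP76 went as low as 0.30, while CEP85 stayed at 0.39 or more and CEP55 at 0.32 or more. CEP85, a binding partner of STIL, was at 63.1, 56.3 and 56.6 CPM in shCtrl and 87.8, 83.9 and 84.5 in shRBM39 (log2 fold change 0.54, SE 0.05). CNTROB, a centriole coat protein of daughter centrioles, rose by 18.4% (0.24, SE 0.04), a call lost with limma-trend on RPKM.

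The 4 assembly genes that fell were CEP295, CEP57, CEP120 and CEP152. CEP295, which turns new centrioles into centrosomes, was at 37.1, 37.3 and 36.6 CPM in shCtrl and 25, 23.7 and 25.8 in shRBM39. It fell by 32.8% (log2 fold change -0.57, SE 0.06, adjusted p = 5.78e-11 by edgeR), and 13.9% of its exon bases are shared with genes on the other strand, TAF1D among them. CEP57 and CEP120 each fell by 24.1%, with log2 fold changes of -0.40 (SE 0.05 and 0.07). CEP120 works with CENPJ, which rose, in elongating centrioles. CEP152, which recruits the kinase PLK4, had the smallest fall of the 4 at -0.20 (SE 0.06), at 47.4, 39.5 and 46.3 CPM in shCtrl and 38.4, 37.9 and 39.3 in shRBM39, with shCtrl replicate 2 just above the knockdown values. Its call was lost without shCtrl replicate 1 (-0.15) and with the GC and length correction. CEP135, CEP63, CEP44 and CEP97 did not pass, with log2 fold changes from -0.03 to 0.15. CEP135 passed without shCtrl replicate 3 (0.26) and with the GC and length correction (0.25).

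**Figure D3:**
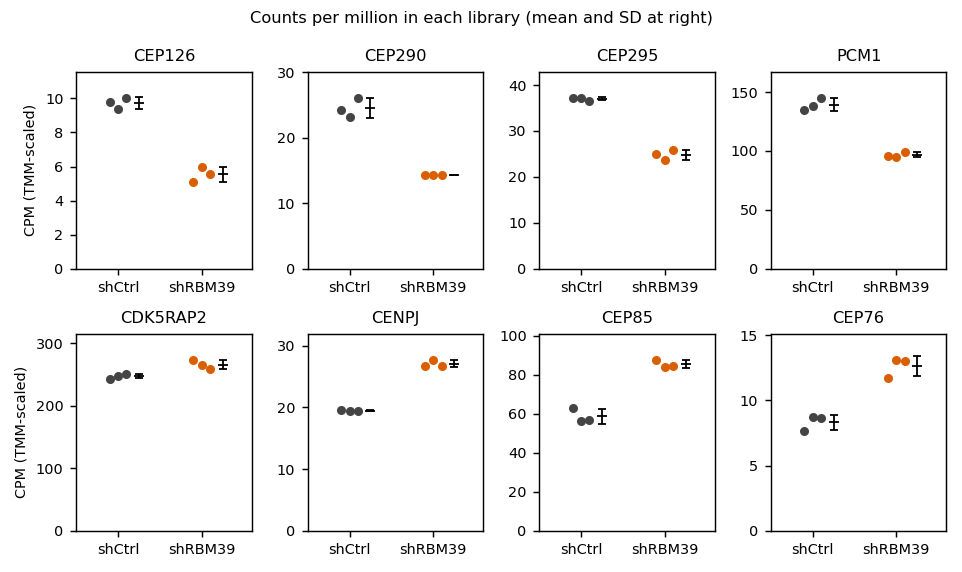
TMM-scaled CPM in each library for 8 genes (grey shCtrl, orange shRBM39), with the mean and SD of each group at the right of its points and axes starting at 0. CEP126, CEP290, CEP295 and PCM1 were lower in all 3 shRBM39 libraries, CENPJ, CEP85 and CEP76 higher, and CDK5RAP2 differed by 7.47%.

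Of 6 appendage genes, 3 were higher, 1 lower and 2 not called, beside 29.2% higher and 29.9% lower of all tested genes. NIN, a subdistal appendage protein that anchors microtubules, was at 82.5, 83.9 and 81.7 CPM in shCtrl and 83.4, 79.4 and 78.8 in shRBM39. The groups overlapped, and the log2 fold change was -0.04 (SE 0.04, adjusted p = 0.446 by edgeR). NIN was called lower with library totals alone (-0.16) and with limma-trend on RPKM, and higher with the GC and length correction (0.10). CEP164, the distal appendage protein that starts cilium formation, also overlapped, at 133, 141 and 129 CPM against 142, 146 and 133, and passed only when shRBM39 replicate 3 was left out (0.11) or GC content and length were corrected for (0.20). CEP89, another distal appendage protein, rose from 23, 23.5 and 23 to 27.9, 29.6 and 26.7 CPM (0.27, SE 0.06), a call lost with limma-trend on RPKM (0.11 and 0.14 with pseudocounts of 1 and 0.1). CEP83 and CEP128 were also called higher, at log2 fold changes of 0.21 and 0.17, and CEP170 lower at -0.18. Neither CEP83 nor CEP128 was called with library totals alone or limma-trend on RPKM. The call of CEP83 was also lost without shCtrl replicate 2 (0.16), and that of CEP170 with the GC and length correction. Over the alternatives CEP128 ran from 0.04 to 0.27 and CEP170 from -0.31 to -0.06. With library totals alone the list had 1 gene higher and 2 lower.

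In the linker that holds the 2 centrosomes of a cell together before mitosis, CEP250 and CEP68 parted, with log2 fold changes of 0.13 and -0.18. Neither call held throughout: CEP250 was not called with library totals alone or limma-trend on RPKM (down to 0.01), and CEP68 with neither DESeq2 nor the GC and length correction (up to -0.09). The call of CEP68 was also lost without shCtrl replicate 3 (-0.12) or shRBM39 replicate 1 (-0.12). Among genes of the cilium and centriole tip, CEP78 and CEP41 rose and CEP162 fell. CEP78, at the distal end of centrioles, was at 25.5, 24.5 and 26.8 CPM in shCtrl and 36.6, 34.9 and 36.6 in shRBM39, a rise of 41.0% (log2 fold change 0.50, SE 0.06). CEP41, needed for glutamylation of ciliary tubulin, rose by 36.1% (0.44, SE 0.08). CEP162 had a log2 fold change of -0.26 (SE 0.09, adjusted p = 0.0123 by edgeR), a call that DESeq2 did not make (adjusted p = 0.0701) and that was lost without shCtrl replicate 1 (-0.22) or 3 (-0.21).

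CEP55, which acts at the midbody where daughter cells part rather than at the centrosome, was at 109, 102 and 109 CPM in shCtrl and 148, 141 and 149 in shRBM39. It rose by 37.1% (log2 fold change 0.46, SE 0.04, adjusted p = 9.21e-12 by edgeR). The other 6 members had no assigned role. Of these, CEP70 rose (0.23, SE 0.06, and 0.15 without shRBM39 replicate 3). It was not called with library totals alone (0.11) or with limma-trend on RPKM. CEP112, CEP350 and CEP95 fell (-0.34, -0.27 and -0.16). The call of CEP95 was lost without shCtrl replicate 2 (-0.10) and with the GC and length correction. CEP85L and CEP295NL did not pass. CEP85L was at 1.74 to 2.31 CPM in shCtrl and 2.27 to 3.20 in shRBM39 (log2 fold change 0.33, SE 0.18). Bulk libraries cannot tell fewer cells with a transcript apart from less of it per cell.

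Levels between genes were compared in RPKM, which divides by exon length. In shCtrl, CEP55 was highest at 34.0 ± 1.2 RPKM, followed by CEP131 at 28.9 ± 0.68, CDK5RAP2 at 25.6 ± 0.59 and CEP250 at 24.6 ± 0.59 (SD, n = 3). The ranges of CDK5RAP2 and CEP250 over the libraries overlapped. Within each shCtrl library CDK5RAP2 was the higher, at 24.9, 25.9 and 26.0 RPKM against 24.2, 25.3 and 24.3. The lowest were CEP85L at 0.234 ± 0.038, CEP44 at 0.692 ± 0.11 and CEP97 at 0.917 ± 0.072. The member median was 3.70 RPKM and that of all tested genes 3.44. In the order of the 43 levels, 18 of the 42 neighbouring pairs had libraries that did not overlap, and the other 24 pairs could not be told apart by their 3 libraries.

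Genes that work with this family were read from 6 lists of 51 genes in all, every one of which was tested. Of them 30 were higher, 12 lower and 9 not called, with a median log2 fold change of 0.18 beside -0.01 for all tested genes. Called genes made up 82.4% of the 51, beside 59.1% of all tested genes. Of the 51, 58.8% were higher and 23.5% lower, beside 29.2% and 29.9% of all tested genes. As the lists were chosen with earlier results of these data known, these shares are a description only. With library totals alone 21 were higher and 15 lower, and with limma-trend on RPKM 18 and 16. In the gamma-tubulin ring complex, the nucleator that CDK5RAP2 binds and activates, 8 of 10 genes rose and TUBG2 fell. MZT1, a small subunit that joins the ring to its anchors, was at 8.73, 8.53 and 8.61 CPM in shCtrl and 19.6, 20.6 and 22.2 in shRBM39 (log2 fold change 1.27, SE 0.08). TUBG1, the main gamma-tubulin gene and named after its values were seen, had a log2 fold change of 0.61 (SE 0.04), and TUBG2, its near-identical copy, of -0.55 (SE 0.09). How reads matching both copies were counted is not stated, so that split is uncertain. With library totals alone 4 of the 10 were higher and 2 lower.

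In augmin, which branches microtubules inside the spindle, 6 of 8 genes rose (75%), beside 29.2% of all tested genes. HAUS8 led at 0.70 (SE 0.06). HAUS4 was lower at -0.21 (SE 0.09, adjusted p = 0.0393 by edgeR), shares 30.9% of its exon bases with another gene on the same strand and lost the call when any library but shRBM39 replicate 2 was left out (-0.23 to -0.15). All 5 centrosome kinases were called, beside 59.1% of all tested genes. AURKA, which drives centrosome maturation, was at 41.8, 37.8 and 39.0 CPM in shCtrl and 75, 75.6 and 72.1 in shRBM39 (0.91, SE 0.05), and TTBK2, which starts cilium growth, fell (-0.36, SE 0.08). Of 15 further centriole genes 8 rose (53.3%) and 3 fell (20%), beside 29.2% and 29.9% of all tested genes. Log2 fold changes ran from 1.07 (SE 0.05) for CETN2, a centrin of the centriole lumen, to -0.32 (SE 0.10) for POC1B. POC1B was at -0.23 and not called without shRBM39 replicate 1. With library totals alone 4 of the 15 rose and 4 fell.

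The list of other linker and satellite genes leaned the other way, with 5 of 8 lower and 1 higher. Of all tested genes, 29.9% were lower and 29.2% higher. OFD1, a satellite and centriole end protein, was at 55.3, 53.7 and 55.7 CPM in shCtrl and 37.7, 35.6 and 40.0 in shRBM39 (-0.54, SE 0.05). LRRC45, a linker protein, was the one that rose (0.31, SE 0.04). Among 5 genes tied to CDK5RAP2, MAPRE1, the plus-end protein EB1 that CDK5RAP2 binds, rose from 114, 112 and 114 to 179, 183 and 178 CPM (0.67, SE 0.04). AKAP9, a scaffold of the Golgi and centrosome that binds CDK5RAP2, fell from 82.8, 73.3 and 85.7 to 47.3, 44 and 41.7 CPM (-0.86, SE 0.05). This was the lowest log2 fold change of the 51 in the reported fit.

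**Figure D4:**
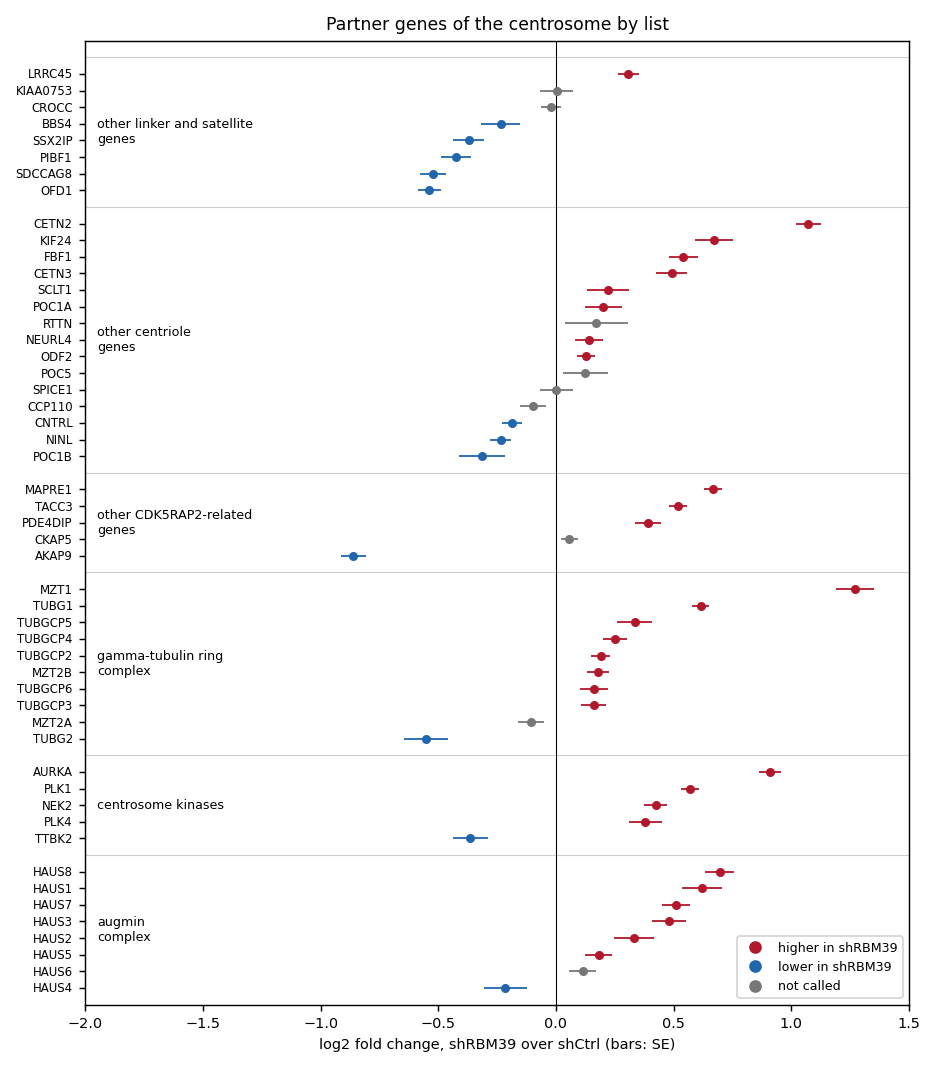
Log2 fold change of shRBM39 over shCtrl for the 51 partner genes in 6 lists, with bars of 1 SE. Of them, 30 were higher and 12 lower, with MZT1 at 1.27 and AKAP9 at -0.86 at the ends.

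Splicing records were available for 8 of the 43 genes (18.6%), beside 6.5% of all tested genes. Members were also longer, as given above, and the part of length in this was not tested. The records were 9 skipped exons (SE) and 1 pair of mutually exclusive exons (MXE). The deposited list had been chosen by the authors' own test on these same libraries and by a difference in inclusion level of at least 0.1, so exons without a difference were not analysed here and the records are not independent evidence of a change. The list calls its groups 1 and 2 without saying which is the knockdown, and those names are kept. Inclusion level is the share of transcripts holding the exon, from inclusion and skipping reads corrected for the length each can come from. When inclusion reads were set against skipping reads by edgeR's quasi-likelihood test, adjusted over the listed records only, 4 of the 10 were called, beside 37.3% of all listed records. Called records were thus about as common here as in the whole list, and adjusted p-values over a list chosen this way are too small. In 8 of the 10 the level was lower in group 1, beside 68.5% of all listed records.

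CDK5RAP2 exon 32, printed above, was the deepest of the 10 records, with 143 to 170 reads per library. Inclusion reached 0.720, 0.765 and 0.690 in the libraries of group 1, and 0.546, 0.633 and 0.6 in those of group 2. Group 1 lay wholly above group 2, with means of 0.725 ± 0.038 and 0.593 ± 0.044 (SD, n = 3). Skipping reads carried the difference: group 1 libraries had 19, 14 and 21 and group 2 libraries 36, 29 and 31, with inclusion reads of 138, 129 and 132 against 122, 141 and 131. The difference of 0.132 had an adjusted p = 0.0153 by the edgeR fit. The exact two-sided permutation test of the levels gave p = 0.1, the smallest that 3 against 3 allows. Leaving out 1 library kept the difference between 0.109 and 0.152, but the call was lost without value 1 of group 2 (adjusted p = 0.0792), value 3 of group 2 (0.0564), value 1 of group 1 (0.0722) or value 2 of group 1 (0.0717). The second record of the gene, exon 20 of 38 at chr9:120458450-120458622, rested on 1 to 3 reads per library, and its level could not be told apart between groups (adjusted p = 0.198 by the edgeR fit). In this record exon 20 lay between exons 18 and 22, so the exons in between were in neither form.

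CEP131 exon 11 was included in every read of group 1 and skipped in a few of group 2. Group 1 held 20, 34 and 25 inclusion reads and no skipping read: 0 of 79 reads, which allows a share of skipping reads of up to 3.80%, a limit that covers counting error only. Group 2 held 31, 24 and 27 inclusion reads and 3, 2 and 2 skipping reads, at levels of 0.857, 0.874 and 0.886. The groups did not overlap (adjusted p = 0.0211 by the edgeR fit), but the contrast rests on 7 skipping reads, and only without value 2 of group 2 was the record still called when a library was left out (difference 0.120 to 0.135).

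CEP164 exon 8 went the other way, since group 1 held the lower levels (0.762, 0.644 and 0.672) and group 2 the higher (0.847, 0.833 and 0.882). The difference of -0.161 came from 35 to 59 reads per library (adjusted p = 0.0419 by the edgeR fit) and was no longer called when any 1 library was left out (-0.196 to -0.137). NIN had the only pair of mutually exclusive exons, exon 3, partly coding, at chr14:50821874-50822077 and the non-coding exon 2 at chr14:50830464-50830517. The level counts the form with exon 2, not exon 3. The effective length of that form was 184, against 334 for the other, and exon 2 has 54 bases against 204. Group 1 levels of exon 2 were 0.476, 0.243 and 0.487, and those of group 2 were 0.720, 0.833 and 0.634, on 12 to 45 reads per library. The groups did not overlap, and the difference of -0.327 had the lowest adjusted p of the 10, 0.00257 by the edgeR fit. Without value 2 of group 2 it was -0.275 and missed the threshold (adjusted p = 0.0569).

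The other 5 records were shallow, with overlapping groups, and none was called. They were exon 20 of CEP192 (2 to 10 reads per library), exon 15 of CEP78 (10 to 19), exon 7 of CEP70 (4 to 11), exon 11 of CEP135 (12 to 20) and exon 14 of CEP164 (4 to 14). Exon 14 of CEP164 lay between exons 13 and 16 in its record. The exon after CEP78 exon 15 and the one before CEP70 exon 7 matched no coding exon of the canonical transcript. Mean levels were lower in group 1 in all 5, with differences from -0.482 for CEP192 to -0.139 for CEP164. The CEP192 value shows how little such counts carry: its group 1 levels were 0, 1 and 0.318. Of the 6 records not called, CDK5RAP2 exon 20 among them, 1 was called when value 2 of group 1 was left out.

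**Figure D5:**
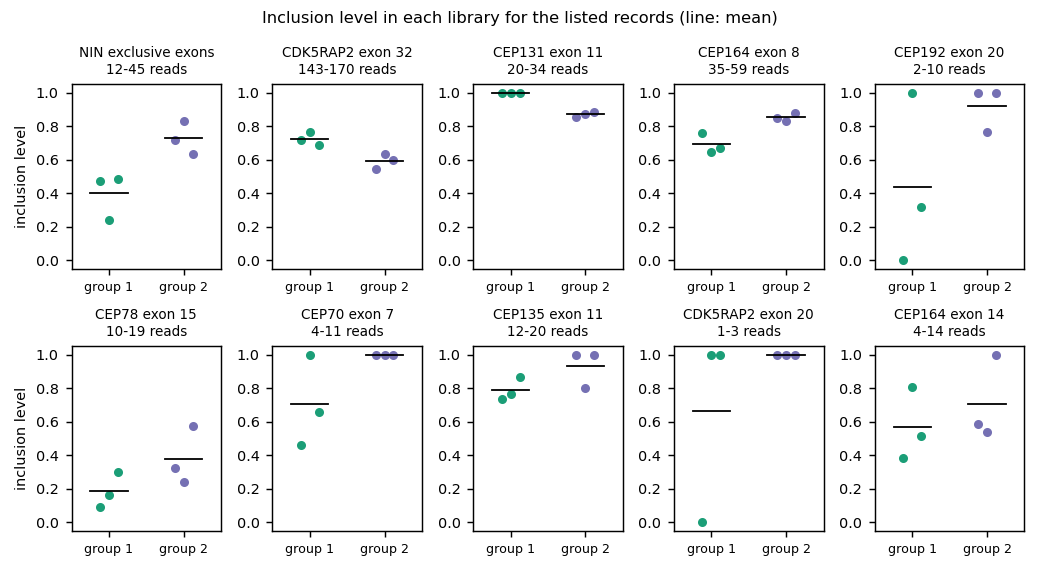
Inclusion level (0 to 1) in each library for the 10 records, in order of adjusted p, with group means as lines and the range of reads per library in each title. The first 4 panels, NIN, CDK5RAP2 exon 32, CEP131 and CEP164 exon 8, have groups that do not overlap, and the other 6 overlap.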

How the data were processed

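Stranded mRNA libraries of SW480 cells were analysed, 3 shCtrl and 3 shRBM39, with groups and replicate numbers from the sample titles. Columns headed NC were taken to be shCtrl, since the series has no other control. The submitters' processing notes name Trimmomatic 0.36, STAR 2.5.3a, featureCounts, Subread 1.5.1, edgeR 3.12.1 and GRCh38. Raw counts by gene symbol were deposited by the authors, with RPKM values of the same counts. Strandedness of counting, treatment of multi-mapped reads and collapsing of unique identifiers are not given in the sources used here. They matter for gene copies and overlapping genes. On the main chromosomes, 92.0% of the count table's exons were identical to a GENCODE v44 exon. The rMATS table deposited by the authors holds inclusion and skipping read counts, inclusion levels as fractions, and the authors' p-values, FDR and group difference. Those comparison columns and the authors' tally of events were not used. Every listed record had passed an unadjusted threshold on the authors' p-value. Exon starts count from 1 here.

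Members and lists were chosen with earlier results of these data known. Genes were tested with edgeR 4.0.16 in R 4.3.3 (filterByExpr, TMM, group as the only term, Benjamini-Hochberg over 18243 genes at 0.05). Records were tested with the same tool on inclusion and skipping reads, with library as a block and the interaction of form and group as the term tested, over 1582 records. This took the place of the FDR that the plan had named. Both fits were also run on simulated counts. Those for records were drawn deeper than most member records and with counting noise only, so they do not bear on shallow records. The biological coefficient of variation was 0.035. Named genes were CDK5RAP2 and the 8 genes added by name, the 8 highest and 8 lowest called CEP genes, members with a record, RBM39 and the highest and lowest called gene of each partner list. Other members are given for completeness. The values of 1 member are not reported here, though it is kept in the counts. Genes were also tested with DESeq2 1.42.0, with scaling to the upper quartile or to library totals, a GC and length correction, no filter, at least 10 counts in every library, limma 3.58.1 on log2(RPKM + 1) and log2(RPKM + 0.1), a replicate block, each library left out and an adjusted p under 0.01. For records they were at least 20 reads, each value left out, no length correction and pooled reads.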

Additional observations from a re-analysis of the deposited data

How the results depend on the processing

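The replicate numbers did not pair the libraries (correlations of deviations between -0.0403 and 0.0405), and with the replicate block 28 members were called, 15 higher and 13 lower, as without it. No other call given here changed under the block. With limma-trend on RPKM, 7 members and 18 partner genes were higher at either pseudocount, in place of 15 and 30. The log2 fold change of CDK5RAP2 was 0.0710 with upper-quartile scaling (not called) and 0.104 with a threshold of 0.01 (not called). It was -0.0200 with library totals alone, -0.0192 with log2(RPKM + 1), -0.0198 with log2(RPKM + 0.1), and 0.0859 to 0.129 without 1 library. Values near 0 also changed sign. CEP164 went to -0.0602 with library totals, -0.0544 with log2(RPKM + 1) and -0.0586 with log2(RPKM + 0.1). With the GC and length correction CEP192 went to 0.0818, NIN to 0.0964, PCNT to 0.102 and SASS6 to 0.0131. SASS6 was at 0.0067 with DESeq2, 0.0093 with no filter and -0.0440 to 0.0437 without 1 library, where PCNT ran from -0.0687 to 0.0143 and CEP192 from -0.0471 to 0.0035. The cause was not tested. The exon 32 difference of CDK5RAP2 was 0.0779 without the correction for effective length and 0.1085 to 0.152 without 1 library. Without 1 library, 1 to 2 member records were called in place of 4, and 3 were when records under 20 reads in any library were dropped. CEP164 exon 14 ran from -0.259 to 0.0068 without 1 library. Only 3 of the 10 records reached 20 reads throughout.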
